A study of Mus musculus with 3 samples.

Results

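The exons described here are standalone exons of intermediate inclusion in wild-type mouse skeletal muscle: cassette-like stretches of 28 to 300 bases that touch no other exonic part of their gene. They were chosen by PSI (percent spliced in, the share of transcripts that hold an exonic part, estimated from reads that include it and reads that skip it). A member had a wild-type PSI of 20 to 80%, at least 100 inclusion plus exclusion reads and at least 1 exclusion read in each of 3 libraries, and lay outside Ttn and outside groups of merged overlapping genes. There were 578 members in 368 genes, out of 469293 exonic parts in all. Of the 3811 parts that met every criterion but the wild-type window, 822 lay above 80% and 2411 below 20%. Just inside the lower bound were an Myh4 exon at 20.29% and a C4b exon at 20.32%, and just outside it parts of Zfp560 at 19.94% and Mbnl2 at 19.95%. Just inside the upper bound was Entpd4b at 79.60%, and just outside it Gpi1 at 80.09% and Slc7a10 at 80.14%. Because wild-type PSI chose the members, their wild-type levels and their differences from wild type are descriptions, and the pair of homozygous and heterozygous libraries, neither of which set the window, is the main comparison.

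RNA came from skeletal muscle of mice aged 12 weeks. The mice were wild type or carried the Rbm20 missense change I538T, a knock-in made with CRISPR/Cas, in heterozygous or homozygous form. Each genotype was 1 library, so no difference has a replicate check and no p-value is given. The sources used here do not name the muscle, the sex of the mice, or how many mice or founder lines stand behind a library. Rbm20 itself was at 13 RPM (inclusion reads per 1000000 of the library) in the wild-type library, 10.8 in the heterozygous and 2.97 in the homozygous, and 0 of the members were parts of Rbm20. A level does not show a missense change, so it does not check the labels. The median member had 436 reads in the wild-type library, 558 in the heterozygous and 372 in the homozygous. The 95% Wilson intervals of PSI had median widths of 9.3, 6.78 and 8.29 points in the same order. They cover counting error only. Below, values in a row of 3 are given in the order wild type, heterozygous, homozygous. Summed fast-fibre markers were at 179367, 164526 and 213297 RPM, the largest sums of any marker list, while 10 slow-fibre markers summed to 2340.3, 908 and 145 RPM and 7 fat markers to 3826, 7725 and 2322. The libraries therefore also differed in the RNA of other fibre and cell types. In bulk RNA, fewer cells of a type and less RNA per cell cannot be told apart, and the part of either in the PSI values was not tested.

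A cassette exon is an internal exon that the spliceosome either joins into the transcript or skips. Its inclusion is set by the strength of its splice sites and by RNA-binding proteins that bind the exon or the introns beside it. RBM20 is one such protein, made in heart and skeletal muscle, that binds UCUU elements in introns and is best known for repressing exons of Ttn, the gene of the sarcomere spring titin. In muscle, MBNL and CELF proteins govern another set of cassette exons that switch after birth. Some cassette exons come as mutually exclusive pairs, in which a transcript takes either exon and seldom both.

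Paired exons gave the clearest picture of intermediate inclusion, since the values of both exons can be set against each other. Their sequences are shown (GRCm38, 5′ to 3′ on the gene's strand, from GENCODE M21 transcripts) with capitals at the positions where the exons of a pair of equal length differ. The pairs belong to the collagen-modifying enzyme gene P4ha1 (strand +, chr10:59354340-59354410 and chr10:59355350-59355420), the Golgi trafficking GTPase gene Rab6a (strand +, chr7:100629666-100629771 and chr7:100629838-100629943), the arginyltransferase gene Ate1 (strand -, chr7:130504694-130504822 and chr7:130503722-130503850), the thin-filament gene Neb (strand -, chr2:52186012-52186116 and chr2:52185271-52185375) and the fast troponin T gene Tnnt3 (strand +, chr7:142513665-142513705 and chr7:142514326-142514366). All are coding exons.
P4ha1 first exon: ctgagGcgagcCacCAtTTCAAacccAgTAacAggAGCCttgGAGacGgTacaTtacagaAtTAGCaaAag
P4ha1 second exon: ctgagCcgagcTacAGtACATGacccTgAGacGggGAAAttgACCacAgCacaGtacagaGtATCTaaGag
Rab6a first exon: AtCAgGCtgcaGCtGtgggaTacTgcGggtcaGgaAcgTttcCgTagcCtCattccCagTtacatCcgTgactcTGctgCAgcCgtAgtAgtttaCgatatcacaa
Rab6a second exon: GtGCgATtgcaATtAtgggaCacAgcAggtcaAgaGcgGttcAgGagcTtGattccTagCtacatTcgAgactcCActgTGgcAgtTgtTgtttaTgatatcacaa
Ate1 first exon: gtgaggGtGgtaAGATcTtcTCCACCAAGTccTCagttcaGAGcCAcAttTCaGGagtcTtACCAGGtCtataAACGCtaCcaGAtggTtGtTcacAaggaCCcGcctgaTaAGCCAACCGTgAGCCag
Ate1 second exon: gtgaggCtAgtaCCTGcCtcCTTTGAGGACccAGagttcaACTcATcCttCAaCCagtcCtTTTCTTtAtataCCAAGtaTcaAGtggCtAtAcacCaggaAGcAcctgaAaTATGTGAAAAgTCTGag
Neb first exon: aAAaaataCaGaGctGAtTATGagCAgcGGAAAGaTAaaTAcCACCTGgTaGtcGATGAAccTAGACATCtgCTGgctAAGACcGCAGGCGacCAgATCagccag
Neb second exon: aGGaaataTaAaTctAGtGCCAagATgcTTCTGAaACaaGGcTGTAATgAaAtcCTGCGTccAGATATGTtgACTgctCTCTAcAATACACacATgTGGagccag
Tnnt3 first exon: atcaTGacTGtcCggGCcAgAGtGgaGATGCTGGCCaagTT
Tnnt3 second exon: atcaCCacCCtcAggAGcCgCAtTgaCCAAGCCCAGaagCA
The Rab6a exons were alike at 76 of 106 positions and those of P4ha1 at 42 of 71. A smaller share of positions matched in Ate1, with 62 of 129, in Tnnt3, with 18 of 41, and in Neb, with 40 of 105.

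A further set of coding cassette exons with no near-identical copy elsewhere is shown because they carry the differences between libraries, or their absence, described below. Capitals mark the letters TCTT, the DNA form of the UCUU element. The exons belong to Akap13 (strand +, chr7:75679820-75679873 and chr7:75683394-75683459), Kif16b (strand -, chr2:142715062-142715094), Clta (strand +, chr4:44031400-44031435), Dst (strand +, chr1:34301861-34301932), Pecam1 (strand -, chr11:106671742-106671798), Ric8b (strand +, chr10:85001782-85001901) and Nfix (strand -, chr8:84723728-84723850).
Akap13 exon of 54 bases: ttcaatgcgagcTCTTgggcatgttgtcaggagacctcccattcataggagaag
Akap13 exon of 66 bases: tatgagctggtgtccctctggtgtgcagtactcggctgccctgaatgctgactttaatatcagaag
Kif16b exon of 33 bases: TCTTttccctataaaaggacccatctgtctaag
Clta exon of 36 bases: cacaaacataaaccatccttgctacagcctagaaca
Dst exon of 72 bases: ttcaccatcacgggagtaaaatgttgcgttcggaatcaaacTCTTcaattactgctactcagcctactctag
Pecam1 exon of 57 bases: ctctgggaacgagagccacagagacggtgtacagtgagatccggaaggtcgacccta
Ric8b exon of 120 bases: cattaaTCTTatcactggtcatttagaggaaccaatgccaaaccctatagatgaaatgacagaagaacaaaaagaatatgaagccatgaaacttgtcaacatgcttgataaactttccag
Nfix exon of 123 bases: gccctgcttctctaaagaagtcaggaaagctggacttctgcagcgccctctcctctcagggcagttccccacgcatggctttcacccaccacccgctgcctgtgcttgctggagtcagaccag
All but the exon of Nfix are from 33 to 120 bases, and the length of each of these 8 exons is a multiple of 3, so that its skipping would keep the reading frame. TCTT, searched on the gene's strand only, stood in the 54-base Akap13 exon and in those of Kif16b, Dst and Ric8b, and not in the others. Over all members with a matched sequence, 566 of 578, TCTT was in 34.8%, against 38.2% of standalone parts above 80% and 41.6% of those below 20%. Among exons of 28 to 60 bases the share was 17.6% of members and 18.6% of other standalone parts. For 61 to 100 bases it was 32.9% and 32.3%, for 101 to 150 bases 33.1% and 43.5%, and for 151 to 300 bases 45.6% and 58%. The shares of members and other parts were close in the shorter classes and lower in members in the longer ones; neither difference was tested. TGCATG, the letters bound by RBFOX proteins, was in 17 of those 566 members, in 1.71% of the parts above 80% and in 3.46% of those below 20%. Introns were not searched, so these letters say nothing of where RBM20 or RBFOX bind.

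In coding share, which the rule did not use, members stood between the parts above and below the window. The median length, within the 28 to 300 bases that the rule set for all of them, was 109 bases in members, against 108 above and 112 below the window. By the annotation, 379 of 578 (65.6%) were whole coding exons, 47 were partly coding, 39 untranslated, 29 found only in transcripts marked for nonsense-mediated decay, 72 only in non-coding transcripts, 11 no whole annotated exon, and 1 lay in a gene missing from the annotation used. Coding exons made up 87.8% of the parts above 80% and 15.3% of those below 20%. Among coding exons, 54.6% of members had a length that is a multiple of 3, against 45.7% and 47.6% in the other classes. Of the coding members with no near-identical copy 62.7% did, but the shares of the other classes were not computed without copies. The annotation gave 47.6% of members as cassettes, exons that some transcripts hold and others skip, against 41.4% and 28.7%. It held 82.4% of members as internal exons, against 95.6% and 39.9%. The remaining members were annotated only as first or last exons, or not as whole exons, so their PSI need not be skipping of an internal exon. Among the exons named below they include those of Myl1, Tpm3, Chd9, Gatad2a and Gm44486, and the Celf2 exon of decay transcripts.

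Of the members, 156 in 74 genes were near-identical in sequence (at least 95% over at least 80% of their length) to a stretch of another gene or of another place in the same gene. Such a copy can take reads from the exon or lend reads to it, so values of these members are uncertain. They made up 27% of members, 17.3% of the parts above 80% and 11.7% of those below 20%. Neighbouring members also shared reads: 145 members had the same wild-type exclusion count as another member of their gene, and 578 members held 477 distinct counts. The 9 genes with at least 8 members held 119 of them, led by Myh4 and Neb with 21 each, C4b with 16, Mybpc2 with 14 and Srp54c with 13. In addition, 74 members overlapped the span of a second gene, on either strand, in the annotation. Whether they overlapped an exon of that gene was not checked. The sources used here do not say whether counting used strand.

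Between homozygous and heterozygous muscle, 182 of the 578 members (31.5%) differed by at least 20 points of PSI, 122 higher and 60 lower in homozygous muscle. Over all exonic parts with 100 or more reads in both libraries 2.25% did, and over the 3233 standalone parts outside the window 2.2%, of which 1.08% were higher and 1.11% lower. An exon near the middle of the scale has more room to move than one near 0 or 100%, so these shares are not like for like. The median absolute difference was 12.4 points in members and 0.854 points in the parts outside the window, and the median signed difference in members was 2.23 points. The median half-width of the 95% Newcombe interval over members was 5.84 points. All 182 differences had an interval without 0, but with 100 or more reads a difference of 20 points leaves little room for 0. The interval is therefore no check beyond the size rule. The members with near-identical copies held 92 of the 182: 59% of them differed, against 21.3% (90 of 422) of those without, where 51 were higher and 39 lower. Groups of members with copies shared exclusion reads, among them 12 of 15 C4b exons on 1 wild-type count, so the 92 are not separate cases. Taken 1 per wild-type exclusion count, 127 of 477 members (26.6%) differed. That count was not split by copies. Among 250 annotated cassette exons without copies, in 198 genes, 50 differed, 32 higher and 18 lower.

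**Figure D1:**
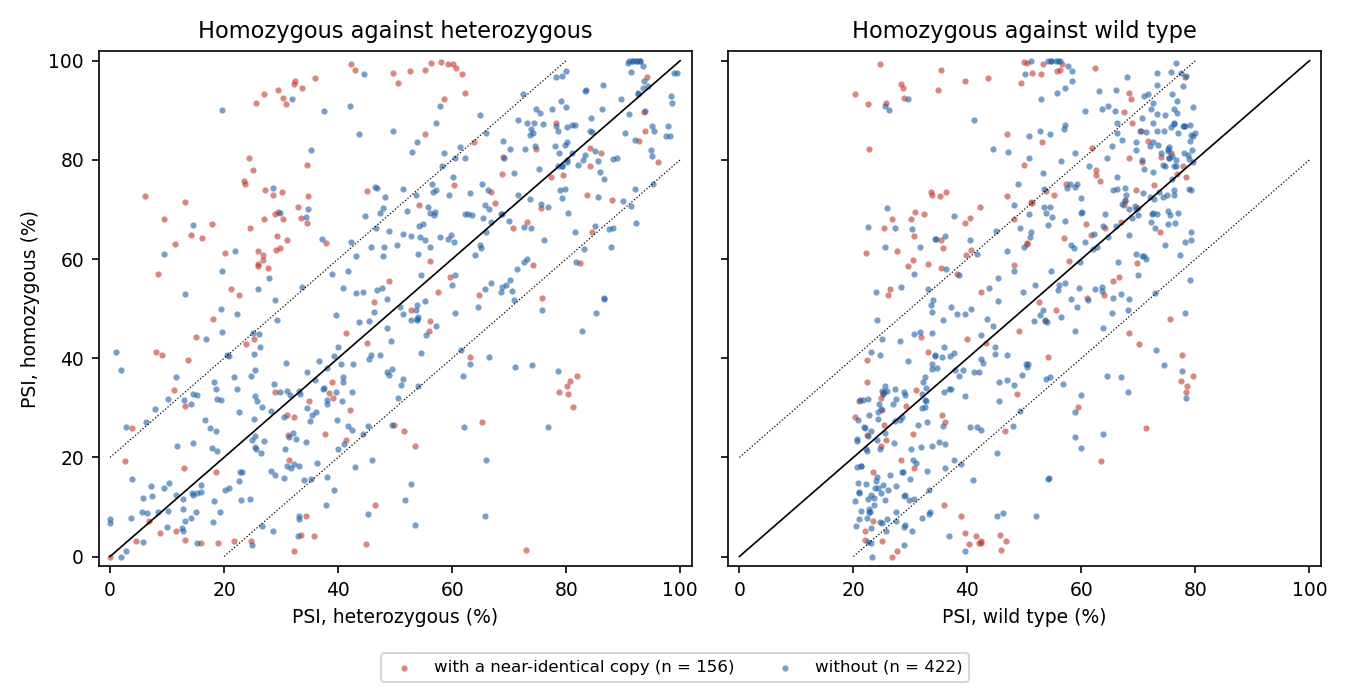
PSI of the 578 members in homozygous muscle (vertical axis, %) against heterozygous (left) and wild-type muscle (right), 1 point per exon, in red with a near-identical copy (n = 156) and in blue without (n = 422). The solid line marks equal PSI and the dotted lines a difference of 20 points; beyond them on the left lie 182 members, 92 of them red, and on the right the points start at 20% and end at 80% because wild-type PSI chose the exons.

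Against wild type, 157 members (27.2%) differed by at least 20 points in heterozygous muscle, 83 higher and 74 lower, and 185 (32%) in homozygous muscle, 122 higher and 63 lower. The share over all exonic parts was 2.57% for heterozygous and 2.17% for homozygous muscle. Outside the window it was 1.42% for heterozygous (0.402% higher and 1.02% lower) and 1.42% for homozygous muscle (0.278% higher and 1.14% lower). Wild-type PSI set that window, so nothing is read from the distance between these shares and those of members. Both counts use the same wild-type library. Members with copies differed in 26.9% of cases in heterozygous and 53.2% in homozygous muscle, and those without in 27.3% and 24.2%. The share in exons with copies was therefore above that in exons without in both pairs that use the homozygous library and close to it in heterozygous against wild type, and the cause was not tested. These shares count each exon, also where exons of a gene share exclusion reads.

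**Figure D2:**
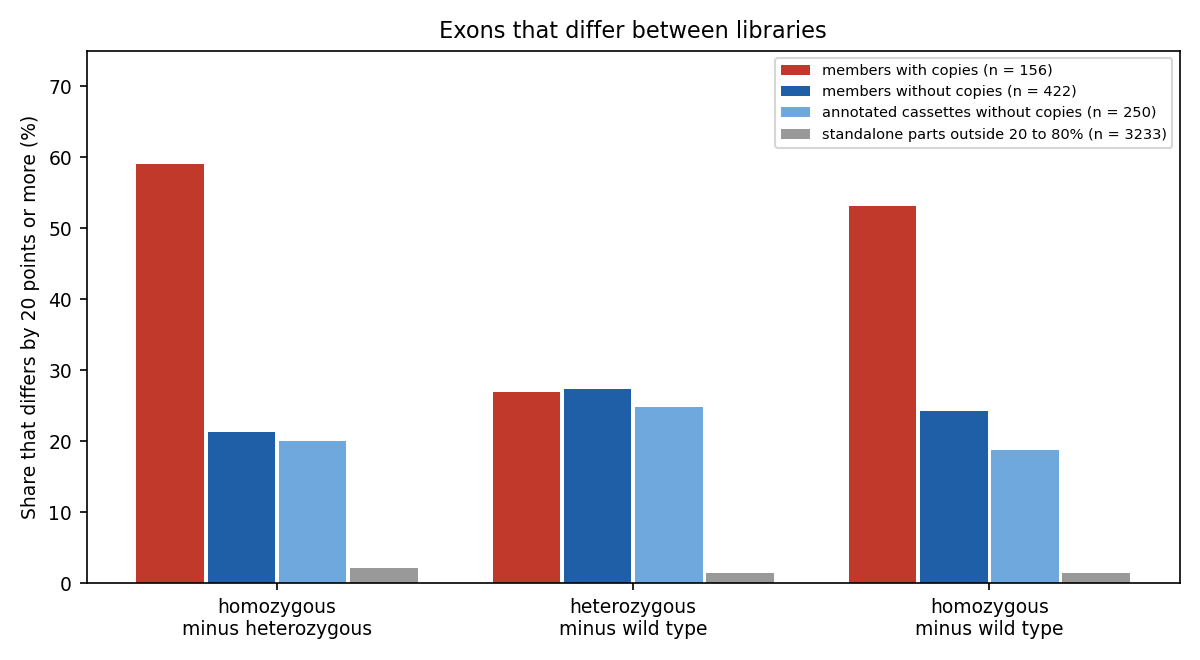
Share of exons (%) whose PSI differed by at least 20 points, for each pair of libraries, in members with copies, members without, annotated cassettes without copies and standalone parts outside the window, with the number of exons in the key. The red bars reach 59% and 53.2% in the pairs with homozygous muscle and 26.9% in heterozygous against wild type, and the grey bars are at 1.42 to 2.2%. Exons that share exclusion reads are each counted.

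By the rule every member was intermediate in wild type, and part of them were so in every library. No member could be intermediate in a knock-in library alone, so these counts do not show a loss of intermediate inclusion. The same rule applied to heterozygous PSI chose 534 exons, and applied to homozygous PSI 476. In all 3 libraries 282 members (48.8%) lay between 20 and 80%, among annotated cassettes without copies 142 of 250 (56.8%). The range over the libraries was under 5 points in 28 members, at least 20 points in 304 and at least 50 points in 42, with a median of 21.1 points. Across the 578 members, Pearson's r between heterozygous and homozygous PSI was 0.647, a description over exons that share libraries, genes and partly reads. It was 0.783 in the 422 without copies and 0.335 in the 156 with them. The median PSI was 49.7%, 47.3% and 56.5%. Among members without copies the homozygous median was 53.6%.

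Most of the paired exons kept their sum near 100% in each library, and the balance within a pair moved in some genes and not in others. By the annotation, 8 pairs of neighbouring coding members in 7 genes were never held by 1 coding transcript. In 6 of them the PSI of both exons summed to within 10 points of 100 in all 3 libraries, among them all 4 of equal length. The other 2 were the exons of Itga7, described below, and a Neb exon of 111 bases with a Neb exon of 105 bases that is also the second exon of the pair described next. The Neb exon of 111 bases had 41.7%, 62% and 26.2%, and the sum was 97.4%, 155% and 119.6%. The sums above 100% in the knock-in libraries do not go with exclusive use. The wild-type sum alone does not show exclusive use either, since exons chosen independently can also sum to near 100%. In Neb, whose product nebulin runs along the thin filament, the first exon of the pair of 105 bases had 46.2%, 6.43% and 8.85%. Its partner had 55.7%, 92.6% and 93.4%. Wild-type muscle used both exons to a like extent and both knock-in libraries used nearly the second alone. The difference of the second exon was 37.0 points (34.8 to 39.1) in heterozygous and 37.8 points (35.6 to 39.9) in homozygous muscle against wild type, and 0.79 points (-0.67 to 2.26) between the knock-in libraries.

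Tnnt3, the fast-fibre troponin T that links tropomyosin to the calcium sensor, had the deepest exon of all members, with 593454, 520867 and 585205 reads. Its first exon of 41 bases had 49.3%, 28.2% and 29.3%. The second, which is no member because another part touches it, had 52.7%, 74.1% and 72.9%, and no coding transcript holds both. As in Neb, wild type was near an even balance and both knock-in libraries favoured the second exon. Homozygous exceeded heterozygous muscle by 1.06 points (0.90 to 1.22) at the first exon. Ate1, which adds arginine to the ends of proteins, had 64.5%, 24.7% and 36.5% at its first exon and 40.4%, 76.1% and 63.9% at its second. It was chosen after its values were seen, since 1 of 6 annotated coding transcripts holds both exons, and the annotation also places Fgfr2 over them. Its first exon was the more used in wild type alone.

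In P4ha1, the catalytic subunit of the enzyme that hydroxylates collagen prolines, the first exon had 53.7%, 51.4% and 35.8%, and the second 49.3%, 46.6% and 66.2%. Here wild type and heterozygous muscle were alike within their intervals, and homozygous muscle was 19.5 points (7.81 to 30.7) above heterozygous at the second exon, just under the threshold of 20. Rab6a, whose paired exons give the isoforms known as RAB6A and RAB6A', had 23.0%, 18.5% and 25.3% at the first exon and 78.8%, 79.8% and 74.1% at the second, with a range below 7 points at each exon. Plpp1, a lipid phosphatase gene with exons of 155 and 152 bases, had 41.1%, 48.6% and 37.3% at the first and 62.2%, 51.3% and 65.1% at the second. The Plpp1 balance differed by up to 13.8 points, between homozygous and heterozygous muscle at the second exon, and that of Rab6a by less. Tusc3 had 57.8%, 56.2% and 59.5% at the first and 43.3%, 45.0% and 43.1% at the second of exons of 91 bases that are identical in sequence. Reads inside them cannot be told apart, so its even balance is uncertain.

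**Figure D3:**
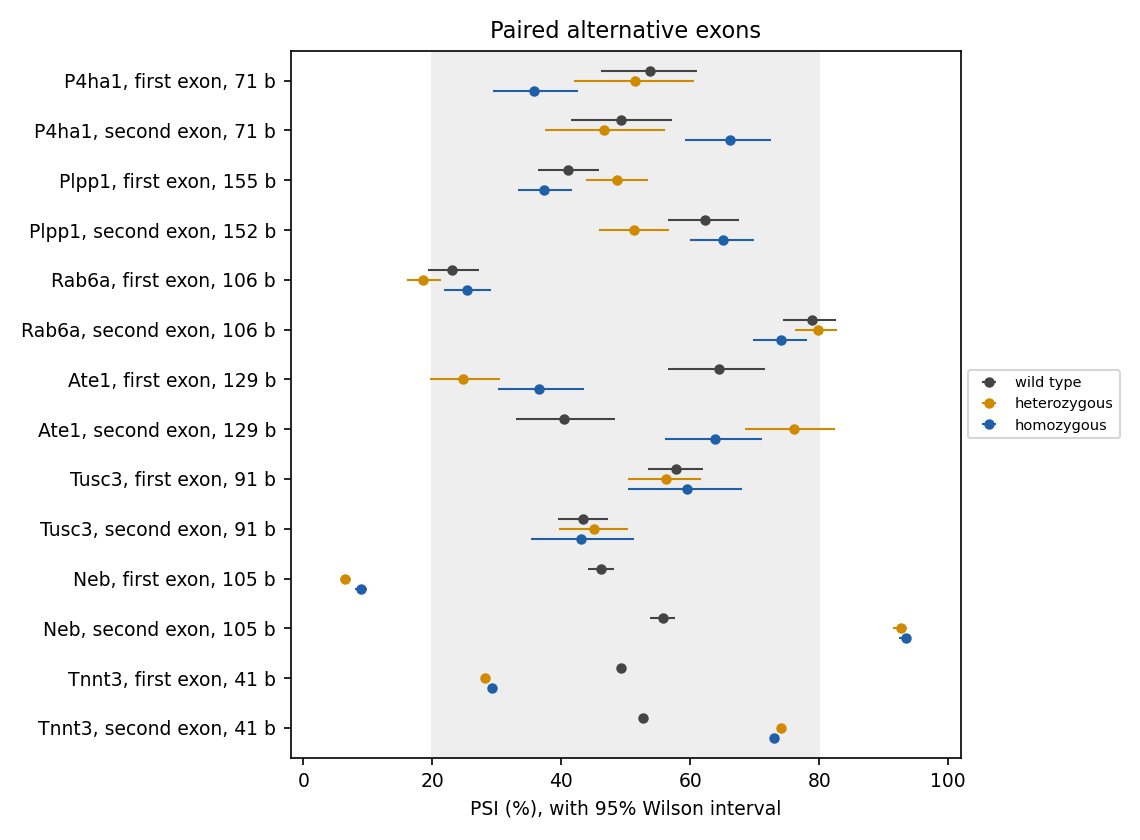
PSI (%, horizontal axis) of paired alternative exons in wild-type (grey), heterozygous (orange) and homozygous muscle (blue), with 95% Wilson intervals that cover counting error only; first and second are in the order of transcription, b is bases, and the shaded band is 20 to 80%. In Neb and Tnnt3 the grey points sit near the middle in both exons and the other libraries sit on opposite sides of them, while in Rab6a and Tusc3 the points of a row lie close together.

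The lists of muscle splicing genes were counted next. From a list of 48 genes known as RBM20 targets in heart, 18 members in 9 genes were found. Between homozygous and heterozygous muscle 2 were higher, 1 lower and 15 neither, with a median absolute difference of 7.92 points beside 12.4 over all members. The share that differed was 16.7%, beside 31.5% of all members. Among the 16 list members without copies it was 12.5%, beside 21.3% of all members without copies. Homozygous against wild type gave 5 higher and 2 lower (38.9%, beside 32%), and heterozygous against wild type 4 higher and 1 lower (27.8%, beside 27.2%). Akap13, an anchoring protein for kinase A, gave both of its exons in the same order. The exon of 54 bases had 41.1%, 71.6% and 88.1%, and that of 66 bases 44.4%, 70.1% and 82.2%. Homozygous exceeded heterozygous muscle by 16.5 points (7.27 to 24.9) and by 12.1 points (2.29 to 21.1), both under the threshold. The exons are neighbours in the transcript, and their exclusion reads were close though not equal (159, 47 and 14 at the first, 156, 49 and 21 at the second). A read that skips both can count at each, so the exons are not read as separate measurements.

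Dst, a giant linker of the cytoskeleton, had 64.7%, 42.0% and 90.8% at an exon of 72 bases, a difference of 48.8 points (41.1 to 55.5) between homozygous and heterozygous muscle. Heterozygous muscle was the lowest and homozygous the highest, with wild type between them. Camk2b, a calcium-activated kinase, had 58.2%, 86.6% and 52.0%, so that heterozygous muscle stood above both others. Trdn, the gene of triadin at the calcium-release complex, had 49.8%, 44.3% and 53.3% at an exon of 30 bases. Its libraries lay close together beside those of Dst. Mlip, a lamin-interacting muscle protein, had 5 member exons, of which 4 were 12.9, 13.1, 13.6 and 14.7 points higher in heterozygous than wild-type muscle and the exon of 156 bases was 9.65 points lower.

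A list of 60 genes whose exons are known to switch after birth under MBNL or CELF proteins held 32 members in 19 genes. None of the 32 had a near-identical copy. Between homozygous and heterozygous muscle 6 were higher and 3 lower, a share of 28.1%. It was 31.5% over all members and 21.3% over those without copies. In heterozygous against wild type 4 were higher and 8 lower (37.5%, beside 27.2% of all members and 27.3% of those without copies). In homozygous against wild type 1 was higher and 2 lower (9.38%, beside 32% and 24.2%). Of the 8 lower in heterozygous muscle, 6 were exons of Lrrfip2 with the same exclusion reads, 21, 117 and 40. Taken 1 per exclusion count and without copies, the list gave 4 higher and 3 lower (26.9%). Over all members taken 1 per count, with copies kept, the share was 24.9%. Nfix, a transcription factor of the switch from fetal to adult muscle, was among the steadiest members with at least 500 reads in each library, at 32.1%, 33.3% and 32.7%. A non-coding RNA gene lies over it in the annotation. Bin1, which shapes the T-tubule membrane, had 32.6%, 26.7% and 30.2% at an exon of 72 bases. Mbnl1 itself had 27.3%, 35.1% and 27.3% at an exon of 36 bases and 76.2%, 78.9% and 73.9% at one of 95 bases. None of these 4 exons differed by 20 points in any pair.

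Other exons of that list had heterozygous muscle apart from the other libraries. Smyd1, a muscle methyltransferase needed for myofibrils, had 38.5%, 61.9% and 36.4% at an exon of 39 bases. Arfgap2, a regulator of Golgi vesicle coats, had 54.9%, 34.4% and 68.5% at an exon of 42 bases, and Snap23, a membrane fusion protein, 78.0%, 58.6% and 81.4% at one of 33 bases. Heterozygous muscle was the highest of the 3 in Smyd1 and the lowest in Arfgap2 and Snap23. Mef2d, a muscle transcription factor with a tissue-specific exon, had 75.4%, 61.4% and 82.5%. Nrap, which anchors thin filaments at the tendon end of the fibre, had 53.4%, 51.3% and 74.2% at an exon of 105 bases, with homozygous muscle apart. Itga7, the laminin-binding integrin chain of muscle, had 58.9%, 82.7% and 45.4% at an exon of 120 bases and 26.9%, 14.2% and 30.7% at one of 113 bases. Its exons moved in opposite directions between libraries, and their sum was 85.8%, 97% and 76.1%.

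**Figure D4:**
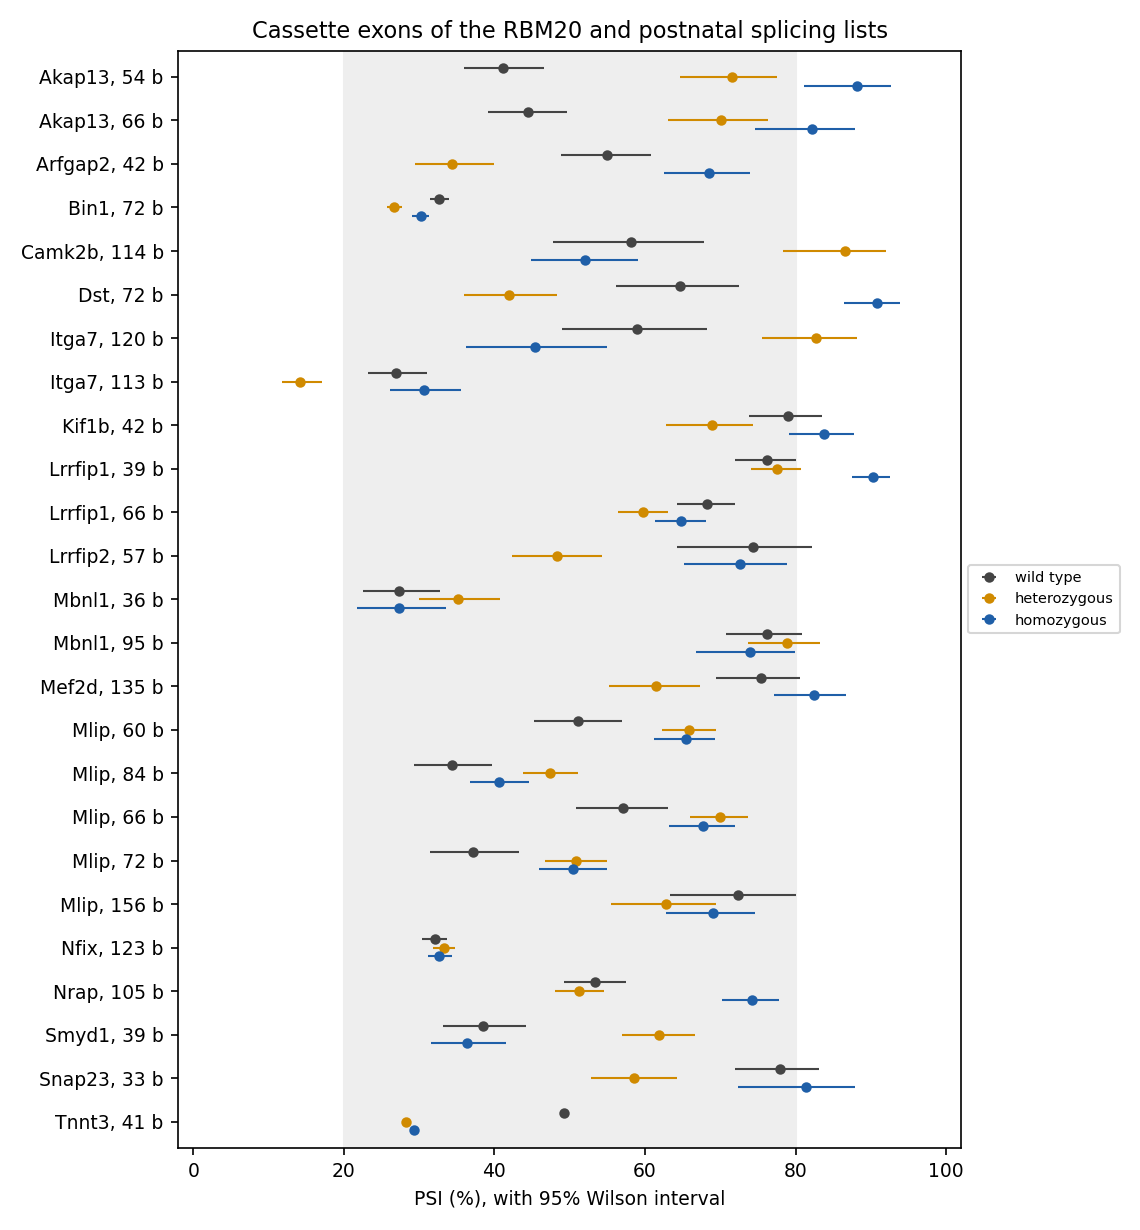
PSI (%, horizontal axis) of 25 coding annotated cassette exons without copies in 17 genes of the RBM20 heart-target and postnatal splicing lists, in wild-type (grey), heterozygous (orange) and homozygous muscle (blue), with 95% Wilson intervals for counting error; b is bases and the band is 20 to 80%. Akap13 runs from 41.1% to 88.1% in the order wild type, heterozygous, homozygous, Dst and Arfgap2 have heterozygous muscle lowest, and the points of Nfix lie together near 32.1 to 33.3%.

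Sarcomere and cytoskeleton genes held 93 members in 27 genes, 6 higher and 10 lower in homozygous than in heterozygous muscle. That share was 17.2%, beside 31.5% of all members and 21.3% of those without copies. Against wild type, 24 were higher and 9 lower in heterozygous muscle (35.5%, beside 27.2%) and 26 higher and 10 lower in homozygous muscle (38.7%, beside 32%). Mybpc2, the fast myosin-binding protein C, gave much of the excess of higher exons: 13 of its exons shared 2958 wild-type exclusion reads, so their values are not separate. Their median PSI was 56.3%, 92.9% and 99.9%. Taken 1 per wild-type exclusion count and without copies, the list gave 8 higher and 8 lower in heterozygous (26.7%) and 8 higher and 9 lower in homozygous muscle (28.3%). Over all members taken 1 per count, with copies kept, the shares were 24.9% and 25.8%. Further upstream in Neb (GRCm38 chr2:52232921-52235683), 3 exons shared 278, 16 and 67 exclusion reads, and their medians were 27.3%, 87.9% and 66%. There the knock-in libraries were both above wild type, as at its second paired exon. Further upstream still (GRCm38 chr2:52257562-52258291) 3 other exons had medians of 66%, 83.5% and 94%.

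Actn4, a non-muscle actinin, had 39.5%, 2.75% and 1.14% at an exon of 86 bases, and Map4, a microtubule protein, 54.3%, 30.5% and 15.9% at an exon of 114 bases. Both were lower in each knock-in library than in wild type. Palld, an actin-bundling protein, had 68.3%, 34.8% and 70.1% at an exon of 51 bases, with heterozygous muscle alone lower. Tpm3, the slow-fibre tropomyosin, had 78.4%, 50.5% and 31.9% at a partly coding exon of 200 bases while the gene's level was 431, 193 and 54.9 RPM. Its level ran with that of the slow-fibre markers above, and their part in the PSI was not tested. The 30 members in fast-fibre marker genes were mostly Myh1, Myh2 and Myh4 exons. These myosin genes are near-identical in long stretches, and their PSI is uncertain even where no copy passed the identity threshold. Of the 30, 0 were higher and 4 lower (13.3%, beside 31.5% of all members) in homozygous than heterozygous muscle. Among the 21 without copies the share was 19%, beside 21.3% of all members without copies. The median signed difference over the 30 in that pair was -6.65 points, beside 2.23 over all members. Heterozygous against wild type gave 1 higher and 2 lower of the 30, with a median of 12.1 points, beside -0.0131 over all members. Of the 21 without copies, 9.52% differed in that pair, beside 27.3% of all members without copies. Homozygous against wild type gave 0 higher and 1 lower (3.33%, beside 32% of all members), with a median of 2.79 points, beside 3.46. Myl1, a fast myosin light chain, held 28.5%, 30.5% and 28.2% at an untranslated part that the annotation gives only as a first or last exon.

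Membrane trafficking genes held 29 members in 17 genes. None of the 29 had a near-identical copy. In heterozygous against wild-type muscle 0 were higher and 10 lower (34.5%, beside 27.2% of all members and 27.3% of those without copies). In homozygous against wild type 0 were higher and 0 lower (beside 32% of all members and 24.2% of those without copies). Homozygous against heterozygous gave 5 higher and 1 lower (20.7%, beside 31.5% of all members and 21.3% of those without copies). The median signed difference was 12.3 points, beside 2.23 over all members and 0.728 over those without copies. The Lrrfip2 exons gave 6 of the 10 as 1 shared count. Taken 1 per exclusion count and without copies, 5 of 23 were lower (21.7%). Over all members taken 1 per count, with copies kept, 24.9% differed in either direction. Clta, the clathrin light chain A with a tissue-specific exon of 36 bases, had 34.4%, 20.9% and 40.5%. Sec31a, a coat protein of vesicles leaving the endoplasmic reticulum, had 37.8%, 1.88% and 37.6% at an exon of 93 bases, with 4 inclusion reads among 126 in heterozygous muscle. Tbc1d4, which restrains glucose-transporter traffic, had 70.6%, 47.8% and 60.6% at an exon of 165 bases. Luc7l2, a spliceosome component outside this list, had 60.7%, 42.2% and 63.4%. In these 4 genes heterozygous muscle was the lowest of the libraries.

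The remaining lists held too few members for their shares to be set beside the 31.5% of all members. Splicing regulators held 9 members in 7 genes, of which 2 were higher and 0 lower in homozygous than heterozygous muscle. They were the Luc7l2 exon and an exon of Celf2 in transcripts marked for decay, with 52.7%, 49.6% and 85.9%. Hnrnpa1, a repressor of many exons, had 29.1%, 14.6% and 12.4%. Transcription and chromatin genes held 8 members in 7 genes, of which 2 were higher and 0 lower in homozygous than in heterozygous muscle. Nfib, a relative of Nfix, had 23.0%, 15.3% and 2.72% at an exon of 89 bases and 30.3%, 12.8% and 5.24% at one of 83 bases, both below the window in each knock-in library. Crem, a cAMP-responsive factor, had 57.1%, 81.5% and 87.0%. Among calcium-handling genes, with 8 members of which 0 were higher and 1 lower in that pair, Srl, a protein of the sarcoplasmic reticulum lumen, had 76.5%, 90.8% and 99.5%. Kinase and phosphatase genes gave 1 higher of 5, an exon of 177 bases of Phka1, the muscle phosphorylase kinase subunit, with 61.3%, 58.2% and 78.7%. None of the 3 members in metabolic genes differed by 20 points in any pair.

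The members without copies that lay furthest apart between homozygous and heterozygous muscle included 1 endothelial marker gene and genes outside the lists. Pecam1, the endothelial adhesion protein, had 67.6%, 28.6% and 74.4% at an exon of 57 bases, a difference of 45.8 points (34.5 to 55.1). The 4 endothelial marker genes measured summed to 75.5, 83.8 and 57.9 RPM. Outside the lists, Gatad2a, with an untranslated exon, had 37.6%, 66.0% and 19.5%. An exon of Chd9 found only in non-coding transcripts had 65.9%, 37.5% and 89.8%. Ttc3 had 4 exons on 86, 91 and 137 exclusion reads, with medians of 29.4%, 52.2% and 9.94%. In each of these genes heterozygous muscle lay on the opposite side of wild type from homozygous muscle, in Pecam1 with an interval of homozygous minus wild type that held 0 (-4.86 to 17.5).

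**Figure D5:**
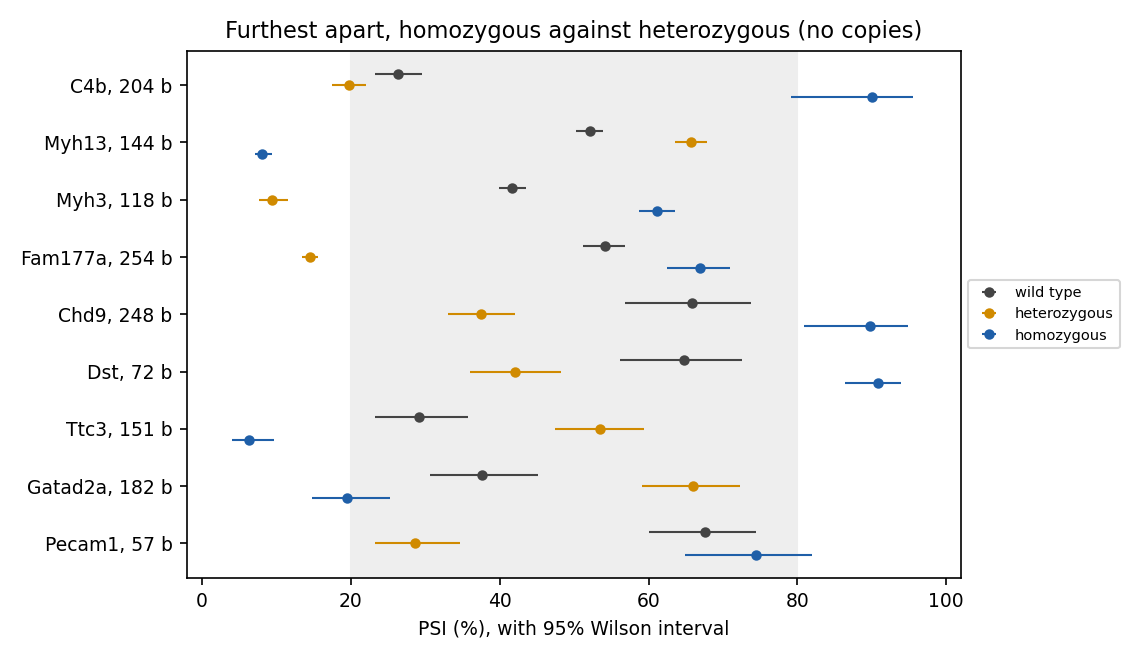
PSI (%, horizontal axis) of 9 of the 10 members without a near-identical copy of their own that lay furthest apart between homozygous (blue) and heterozygous muscle (orange), 1 per gene, with wild type in grey and 95% Wilson intervals for counting error; b is bases and the band is 20 to 80%. In Dst, Chd9 and Pecam1 homozygous muscle is to the right of heterozygous and in Gatad2a and Ttc3 to the left; C4b, Myh13, Myh3 and Fam177a belong to families with near-identical copies.

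Against wild type, Ric8b, a chaperone of G-protein alpha subunits, had 25.6%, 57.9% and 90.8% at an exon of 120 bases. Homozygous muscle was 33.0 points (20.3 to 43.4) above heterozygous, which stood between the other libraries, and the gene's level was 18.9, 10.4 and 9.65 RPM. Kif16b, a motor that carries endosomes, had 22.6%, 72.6% and 66.5% at an exon of 33 bases. The knock-in libraries stood together, 6.13 points apart with an interval of -15.5 to 3.18. Hfe, the iron regulator, had 67.0%, 13.1% and 52.9% at an exon of 264 bases, and Crip1, a small LIM protein, 50.8%, 97.5% and 84.8%. Heterozygous muscle was furthest from wild type in both. Dcxr, a sugar reductase, had 23.9%, 68.5% and 53.3%.

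Several members that lay far apart were in families of near-identical genes, and what they show is uncertain. Mup8, a major urinary protein gene, had 45.9%, 72.9% and 1.27%, with 92, 37 and 2875 exclusion reads. H2-Q7, a class I histocompatibility gene, had 35.2%, 6.16% and 72.8%. In C4b, a complement gene, 15 exons shared 314 wild-type exclusion reads; in the other libraries these exons had 485 to 494 and 5, and the PSI medians were 29.6%, 32.3% and 94.4%. Homozygous muscle stood apart in Mup8 and C4b. Gm14419 had 24.6%, 42.3% and 99.3%, Ermard 48.1%, 9.38% and 68.0%, and Gm44486 22.8%, 74.7% and 82.2%. The 3 Lyz2 exons, on 1535, 1059 and 929 shared exclusion reads, had medians of 69.7%, 82.4% and 59.2%, while the myeloid gene itself was at 230.2, 265 and 105 RPM.

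Host gene levels are set beside the PSI values here. Of the 368 member genes, 3 were at least 2-fold higher and 28 at least 2-fold lower in homozygous than heterozygous muscle (8.42% together), against 15.7% of the 10201 genes at 5 or more RPM. Among the 108 genes with an exon that differed the share was 14.8%, and among the 260 with none 5.77%. In heterozygous against wild type it was 4.67% of 107 genes and 4.21% of 261, beside 8.97% over all genes at that level. In homozygous against wild type it was 7.84% of 102 and 3.01% of 266, beside 12% over all. In every pair the share among genes with a differing exon was below that over all genes, and the part of gene level in PSI was not tested.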

How the data were processed

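Each genotype had 1 library, from a SMART-seq v4 and Nextera XT preparation, per the labels' protocols; the other ages they name were not analysed here. GRCm38 is the build in the submitters' processing notes, which also list the tools TopHat2 2.0.14, Bowtie 1.1.1, Trimmomatic 0.32 and cutadapt 1.1 without their roles. How exonic parts were made and counted is not given in these sources. Per the file headers, the authors deposited raw counts of inclusion and exclusion reads per exonic part and a PSI fraction per library. PSI was recomputed as a percent from the deposited counts, with an exclusion length of 131 bases, and lay within 5.0e-07 of the deposited fraction. The deposited score columns, per the file headers wild-type PSI minus that of another genotype, were not used.

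A difference was called at 20 points of PSI. Wilson intervals of the inclusion share were carried to the PSI scale and joined by Newcombe's method, at 95%, and cover counting error only, since reads carry no molecular identifiers. Levels are inclusion reads per 1000000, with a pseudocount of 1 in log2 ratios. Exons were placed with GENCODE M21, and near-identical copies were found with blastn 2.17.0. The planned search of introns and splice sites was not made because no genome was at hand, so exons alone were searched. The calling rule was run on simulated counts that held counting error alone and shifts well above the 20 points. That run does not show how the rule does near its threshold or with variation between mice. The alternatives tried were other PSI windows, read minimums and thresholds, a plain share of reads, 1 exon per gene, whole internal exons, and exons chosen on another library; leaving out copies, taking shared exclusion counts once, and annotated cassettes alone were added after the data were seen.

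Members, gene lists and tests were chosen with earlier results of these data known. Named exons are the 10 furthest apart in homozygous against heterozygous muscle and the 8 in each other pair, ranked by the interval bound nearest 0 with 1 per gene; the 4 with most reads in each list; the 6 with the smallest range among those with at least 500 reads in each library; and the 2 on each side of each bound. The same ranks among exons without copies, and every other exon named, were chosen after their values were seen. Some exons that these rules name are not reported here. Python 3.11.15, numpy 2.4.6, pandas 2.3.3 and matplotlib 3.10.9 were used.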

Additional observations from a re-analysis of the deposited data

How the results depend on the processing

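Of 100 recomputed values, 73 stayed close to the reported value (counts within 1.5 times, medians within the median half-width of the counting interval), and 27 counts moved further; no median did. The 73 include the counts that also asked for an interval without 0, which the read minimum and the 20 points left almost no room to move. For homozygous minus heterozygous the count of 182 became 275 with 50 reads, 116 with 200 reads, 93 with 1 exon per gene, 90 without copies, 50 in annotated cassettes without copies, 336 at 10 points and 113 at 30 points. For heterozygous minus wild type the 157 became 269, 79, 94, 62 (annotated cassettes without copies), 317 and 63 under the same settings other than the one without copies, which gave 115. For homozygous minus wild type the 185 became 297, 115, 90, 102 without copies, 47, 351 and 100, and also 118 with exons chosen on homozygous PSI and 123 with 1 per exclusion count. The 578 members became 331 at 30 to 70%, 931 at 10 to 90%, 378 at 200 reads, 368 with 1 per gene and 250 annotated cassettes without copies. At the threshold of 20 points, the share that differed between homozygous and heterozygous muscle was 31.5%, and over the alternatives that changed the exons counted it ran from 20% in annotated cassettes without copies to 36.9% at 30 to 70%, with 25.3% at 1 exon per gene and 21.3% without copies. The number of exons counted also changed with these alternatives, so counts and shares can move apart. For heterozygous minus wild type the share of 27.2% ran from 18.9% at 10 to 90% to 32.6% at 30 to 70%. For homozygous minus wild type the share of 32% ran from 18.8% in annotated cassettes without copies to 39% at 30 to 70%. No paired analysis was possible because each genotype had 1 library, and for the same reason no library could be left out. Depth limits single exons: at the members' depth the median half-width of a difference was 5.84 to 6.53 points.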
